A study of Mus musculus with 4 samples.

Results

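The neurons described here are 435 mature olfactory sensory neurons (OSNs) that the deposited cell table places in the cluster Dlg2+ D., the dorsal neurons with transcripts of Dlg2. They were chosen by that label alone, and are 435 of 9539 clustered mature OSNs and of 21809 cell barcodes in all. The samples were 4 male C57BL/6 mice, 8 weeks old, with no transgene and no odorant given, and 1 library per mouse was made from the main olfactory epithelium with the 10x Genomics Chromium 3′ v3.1 chemistry. All cells had been dissociated with papain and sorted as Hoechst+/DRAQ7- live nucleated cells. The mice were the replicates (n = 4), and the comparison was with the 1482 neurons of the plain Dorsal cluster of the same 4 animals, which carries none of the other subset labels.

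Odorant receptors are encoded by a large gene family, of which each mature OSN transcribes a single member, and the axons of OSNs that share a receptor converge on the same glomeruli of the olfactory bulb. Class I receptors, the family shared with fishes, and the trace amine-associated receptors (TAARs) are used mainly by neurons of the dorsal epithelium, while class II receptors are found in all zones. Dlg2 encodes PSD-93, a membrane-associated guanylate kinase that holds receptors and channels at synapses, and S100a5 encodes a calcium-binding protein that marks OSNs and is known to depend on their activity. Nqo1, a quinone reductase, is a classical label of dorsal OSNs.

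The clusters had been drawn by the study from genes other than the receptors. Differences in such genes between Dlg2+ D. and Dorsal are therefore given as a description with no test. Receptor identity and receptor transcripts were not used to draw the clusters, and immature OSNs were not among the clustered cells, so that these were tested. Values are in UMIs (unique molecular identifiers, 1 per captured transcript) per 10000 UMIs of the same cells, summed within a mouse and called the level, and are means ± SD over the 4 mice. Sums over cells do not tell fewer expressing cells from fewer transcripts per cell.

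The mice gave 135, 77, 95 and 128 neurons of the cluster. These were 5.16%, 3.36%, 5.54% and 4.39% of the clustered mature OSNs of mice 1 to 4 (4.61% ± 0.965), with 95% Wilson intervals, which cover counting error only, from 2.69% to 4.18% in mouse 2 and from 4.56% to 6.73% in mouse 3. The intervals of these mice did not overlap. Of the neurons in the 5 dorsal clusters, Dlg2+ D. held 16.5%, 12.7%, 17.1% and 17.0%. The libraries held from 23157467 to 32382702 UMIs, and the cluster sums from 342410 UMIs in mouse 2 to 812818 in mouse 1, against 1349956 to 2468387 in Dorsal. The median neuron was deeper in Dlg2+ D. than in Dorsal in 4 of 4 mice, by 548 ± 326 UMIs (exact sign-flip test over the mice, two-sided, p = 0.13, the smallest that 4 mice allow), and had a higher share of mitochondrial UMIs in 4 of 4 mice (1.20% ± 0.227 against 1.05% ± 0.172, exact sign-flip p = 0.13). Values at equal depth are given with the receptor level and the gene profile, and the part of the mitochondrial share in the results was not tested. In the study's other clustering, in which receptor genes were kept, 385 of the 435 neurons (88.5%) were again in a cluster named Dlg2+ D., 26 in Dorsal, 18 in the ventral counterpart Dlg2+ V. and 6 in Ventral.

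The sequences shown first are stretches of 300 bases around the start of genes on which the results turn, from 250 bases before it to 50 after it, as RefSeq gives them for GRCm38.p6. The starts are those of RefSeq, and for the 4 receptors they lie inside the longer gene intervals of the annotation used for the other coordinates. S100a5 and Pcp4l1 are among the genes with the largest differences, Olfr419, Olfr1037 and Olfr599 are frequent receptors of the cluster, and Olfr1176 is a frequent receptor of Dorsal that no neuron of the cluster had. Capitals mark matches, on either strand, to CCCNNGGG, the core of the sites of the Ebf (Olf1) factors, or to TAATTA, a homeodomain site. Both motifs read the same on both strands, and they do not overlap each other.
S100a5, chr3:90608272-90608571, + strand: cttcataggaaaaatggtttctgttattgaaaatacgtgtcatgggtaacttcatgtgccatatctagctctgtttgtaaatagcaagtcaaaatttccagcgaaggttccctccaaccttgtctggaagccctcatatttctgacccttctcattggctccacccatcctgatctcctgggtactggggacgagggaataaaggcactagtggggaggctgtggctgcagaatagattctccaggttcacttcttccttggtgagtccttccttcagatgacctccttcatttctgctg
Pcp4l1, chr1:171196219-171196518, - strand: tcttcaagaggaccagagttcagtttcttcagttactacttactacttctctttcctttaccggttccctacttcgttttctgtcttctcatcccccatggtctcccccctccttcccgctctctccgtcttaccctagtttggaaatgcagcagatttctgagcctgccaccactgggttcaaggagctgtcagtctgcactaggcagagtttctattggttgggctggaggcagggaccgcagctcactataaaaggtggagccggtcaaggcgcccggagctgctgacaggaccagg
Olfr419, chr1:174250927-174251226, - strand: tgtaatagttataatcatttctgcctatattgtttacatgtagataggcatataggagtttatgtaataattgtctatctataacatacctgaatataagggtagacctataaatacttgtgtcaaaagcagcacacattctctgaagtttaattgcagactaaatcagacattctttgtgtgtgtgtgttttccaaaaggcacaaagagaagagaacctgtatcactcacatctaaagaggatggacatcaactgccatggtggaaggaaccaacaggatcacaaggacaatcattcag
Olfr1037, chr2:86085805-86086104, - strand: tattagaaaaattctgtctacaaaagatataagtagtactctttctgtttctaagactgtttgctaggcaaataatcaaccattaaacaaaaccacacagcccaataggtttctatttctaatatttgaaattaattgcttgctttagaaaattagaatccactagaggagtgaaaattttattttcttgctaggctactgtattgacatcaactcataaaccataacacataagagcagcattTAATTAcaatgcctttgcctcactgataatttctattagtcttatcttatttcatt
Olfr599, chr7:103337762-103338061, + strand: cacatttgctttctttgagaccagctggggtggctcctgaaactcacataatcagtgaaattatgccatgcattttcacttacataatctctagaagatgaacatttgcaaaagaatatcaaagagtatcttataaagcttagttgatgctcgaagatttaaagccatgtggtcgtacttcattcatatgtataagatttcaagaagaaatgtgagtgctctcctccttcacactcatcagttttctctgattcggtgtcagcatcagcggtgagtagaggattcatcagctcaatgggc
Olfr1176, chr2:88339317-88339616, + strand: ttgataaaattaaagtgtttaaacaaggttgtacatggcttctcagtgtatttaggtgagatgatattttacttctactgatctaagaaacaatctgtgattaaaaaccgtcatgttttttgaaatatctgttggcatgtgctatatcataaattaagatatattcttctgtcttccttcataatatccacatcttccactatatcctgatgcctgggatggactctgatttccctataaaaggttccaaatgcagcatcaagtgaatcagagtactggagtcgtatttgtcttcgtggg

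The only match among these 6 windows was TAATTA in that of Olfr1037, 6 bases before the start. TAATTA was found in 177 of 960 receptor promoters (18.4%) and in 5.29% of all 32851 promoters, and CCCNNGGG in 3.02% of receptor promoters and 13.7% of all. Of the 52 receptors with at least 50% of their neurons in Dlg2+ D., 46 had a promoter in the table, of which 3 held TAATTA (6.52%) and 1 CCCNNGGG (2.17%). Of the 141 receptors with at least 50% of their neurons in Dorsal, 119 had one, of which 20 held TAATTA (16.8%) and 2 CCCNNGGG (1.68%). A match is only a run of letters, and these shares are a description.

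The label was compared with its markers first. Dlg2 (chromosome 7, 90476672 to 92449247, GRCm38) had a level of 9.90, 12.1, 11.1 and 9.82 UMIs per 10000 in the cluster in mice 1 to 4, and of 0.916, 1.07, 1.06 and 1.28 in Dorsal. All 4 values of the cluster lay above all 4 of Dorsal, and the log2 difference was 3.41 (SE 0.06, edgeR fit with the mouse as a block). The level of Dlg2 was nevertheless higher in Dlg2+ V. (25.0 ± 2.20), and ordered after Dlg2+ D. came Cd36+ V. (4.04 ± 0.859), Cd36+ D. (2.28 ± 0.919) and Ventral (1.79 ± 0.230). Over the mice, Cd36+ V. overlapped with Cd36+ D. and Cd36+ D. with Ventral, whereas the lowest mouse of Dlg2+ D. lay above every mouse of every cluster except Dlg2+ V. Nqo1 was at 10.6, 17.6, 13.7 and 12.4 UMIs per 10000 in the cluster and at 22.6, 31.2, 26.7 and 20.2 in Dorsal. It was thus far above Ventral (0.474 ± 0.0779) and Dlg2+ V. (0.493 ± 0.195), as the dorsal label says, yet lower than in Dorsal in 4 of 4 mice (log2 difference -0.81, SE 0.04).

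**Figure D1:**
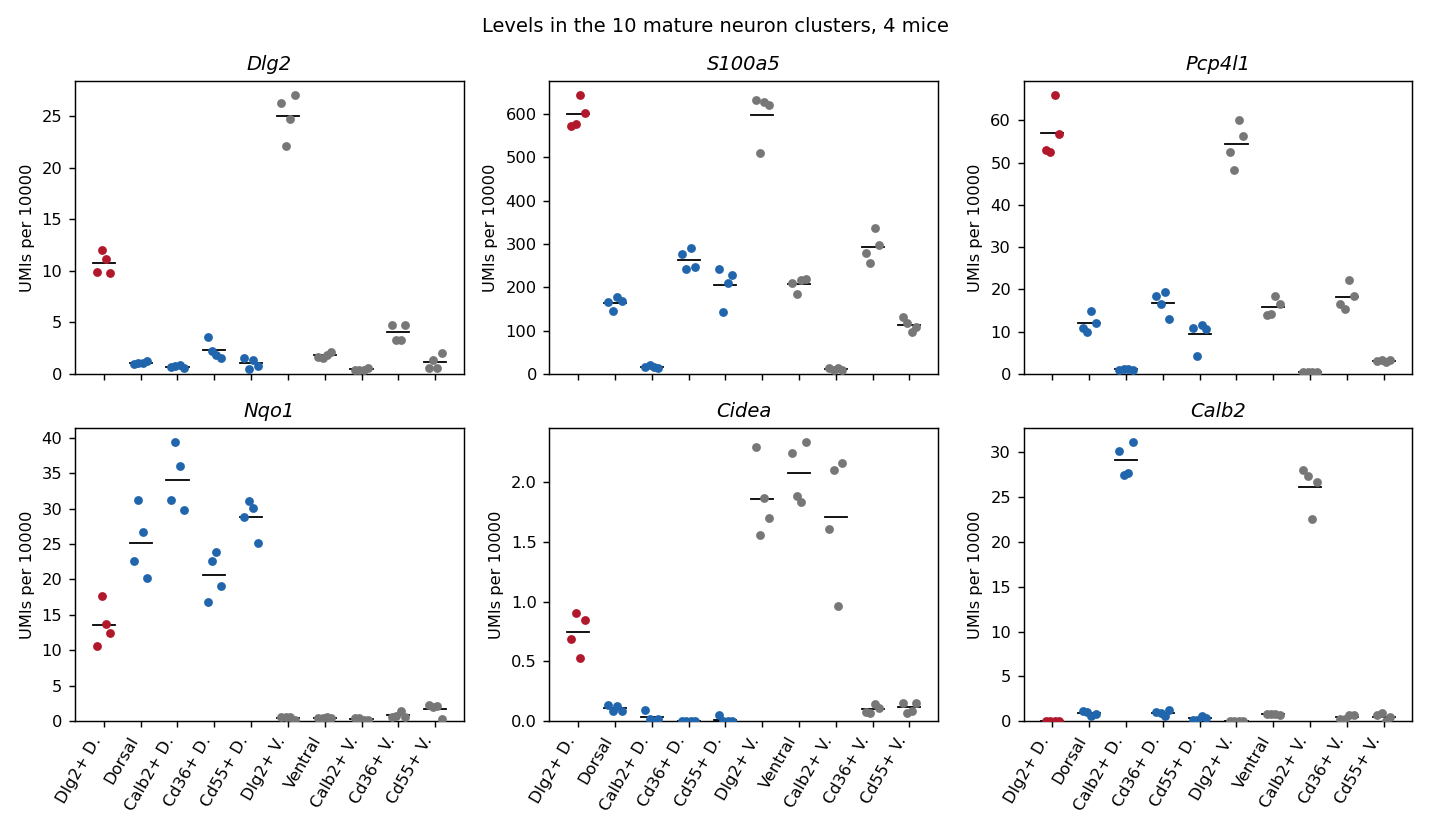
Levels of Dlg2, S100a5, Pcp4l1, Nqo1, Cidea and Calb2 in UMIs per 10000 (y axes) in the 10 clusters of mature OSNs (x axis), with 1 point per mouse (red for Dlg2+ D., blue for the other dorsal clusters, grey for ventral ones) and a line at the mean. Dlg2 was at 10.7 in Dlg2+ D. and 25.0 in Dlg2+ V., S100a5 at 600 and 598, and Nqo1 was above 10 in the dorsal clusters and below 3 in the ventral ones.

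Single neurons were read at a fixed depth, since shares of cells with a transcript grow with depth. After each cell had been thinned to 3000 UMIs, which left out 44 neurons of the cluster and 247 of Dorsal, 68.9% ± 3.36 of the neurons in Dlg2+ D. had a Dlg2 UMI, against 22.6% ± 3.98 in Dorsal and 95.8% ± 1.97 in Dlg2+ V. The Mv2 microvillar cells gave 17.8% ± 1.80 (median depths before thinning of 5068, 4616, 5246 and 5081 UMIs). Whether UMIs of neuronal genes in Mv2 cells are free RNA was not tested, so that this share is not a measured background. Without thinning the shares were 78.6%, 32.6%, 96.7% and 26.8%. At full depth 94 of the 435 had no Dlg2 UMI, which does not show that they lacked the transcript.

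Receptor identity was examined next. The 435 neurons carried 127 receptors, against 263 in Dorsal, and 81 were found in both. They were 250 neurons with a class II receptor (57.5%), 166 with a class I receptor (38.2%) and 19 with a TAAR (4.37%). Seen from the receptors, the cluster held 166 of 1050 clustered class I neurons (15.8%), 250 of 8411 class II neurons (2.97%) and 19 of 43 TAAR neurons (44.2%). In each mouse the class I share was 43.7%, 36.4%, 38.9% and 32.8% in the cluster and 36.2%, 36.6%, 29.8% and 27.2% in Dorsal. It was higher in 3 of 4 mice, by 5.51 ± 4.08 percentage points (exact sign-flip, two-sided, p = 0.25, where 4 mice cannot give a p under 0.13). Against all other dorsal clusters the difference was 3.06 ± 3.47 points (3 of 4 mice higher, exact sign-flip p = 0.25). The TAAR share was higher in 4 of 4 mice (4.36% ± 2.73 against 0.885% ± 0.773, exact sign-flip p = 0.13, the smallest possible).

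TAARs are receptors for volatile amines, and they were divided unequally among themselves. Taar4 was the identity of 12 neurons of the cluster, of no neuron of Dorsal and of 1 of Ventral. Taar9 had 4 neurons in the cluster and 1 in Dorsal, and Taar3 had 2 and 1. Taar2, in contrast, had 1 neuron in the cluster and 10 in Dorsal, and Taar6 had none in the cluster, 1 in Dorsal and 6 in Ventral. All 6 TAAR genes seen here lie in 1 gene cluster on chromosome 10. TAAR neurons were few, and no TAAR passed the filter of the test below.

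The 10 most frequent receptors held 122 of the 435 neurons (28.0%), against 310 of 1482 (20.9%) for the 10 most frequent of Dorsal, and 39 receptors of the cluster were represented by 1 neuron. The class II receptors Olfr419 (chromosome 1, 18 of its 31 clustered neurons), Olfr1037 (chromosome 2, 16 of 36) and Olfr1025-ps1 (chromosome 2, 14 of 20) came first. They were followed by Taar4 (12 of 13) and by the class I receptors Olfr569 (11 of 13), Olfr572 (11 of 12), Olfr599 (11 of 11) and Olfr65 (11 of 14), whose genes lie in the class I cluster on chromosome 7. Olfr1511 (9 of 17), Olfr598 (9 of 10) and Olfr976 (9 of 24) shared the next place. The class I receptors in this group were nearly confined to Dlg2+ D., with 0 or 1 neuron each in Dorsal, while Olfr419, Olfr1037, Olfr1511 and Olfr976 were split between both clusters with 8, 14, 6 and 11 neurons in Dorsal. Receptors with near-identical copies in the genome can share or lose reads when they are counted, so that single identities among close relatives such as Olfr598 and Olfr599 are uncertain.

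In the test over receptor identities, which compares numbers of neurons per receptor in Dlg2+ D. and Dorsal, 16 receptors had enough neurons, and 11 of them were called (68.8%) at an adjusted p under 0.05 (edgeR quasi-likelihood test, mouse as a block). Each of the 11 reached the filter's limit in 4 of 4 mice of the cluster where it was more frequent and in at most 2 of the other, so that it passed through that cluster, and nothing is read from the numbers called or from the direction of those called. With no filter, 20 of 309 receptors were called (6.47%), 10 in each direction, and 8 of the 11 were among them. The 4 of the 11 that were more frequent in the cluster are class II. Olfr419 was the identity of 5, 4, 4 and 5 neurons of the cluster and of 2, 3, 2 and 1 of Dorsal, from larger totals (log2 difference of shares 2.85, SE 0.56, edgeR adjusted p = 2.14e-05). Olfr1025-ps1 had 4, 1, 3 and 6 neurons against 0, 0, 1 and 3 (3.30, SE 0.77, adjusted p = 0.000143). Olfr1037 (1.88, SE 0.49, adjusted p = 0.000666) and Olfr1511 (2.24, SE 0.86, adjusted p = 0.0120) followed, and all 4 had the higher share in 4 of 4 mice. With no filter, the edgeR adjusted p over the 309 receptors was 0.000116 for Olfr419, 0.000628 for Olfr1025-ps1, 0.00605 for Olfr1037 and 0.0933 for Olfr1511, which was then not called. Olfr976 was not called (1.41, SE 0.70, edgeR adjusted p = 0.0522, higher in 3 of 4 mice).

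The other 7 called receptors were less frequent in the cluster. Olfr1361, Olfr1176, Olfr689, Olfr552 and Olfr672 had no neuron in the cluster and 46, 37, 31, 28 and 27 in Dorsal. With 3 neurons over the cluster as the limit that a count of 0 allows, their shares were at least 4.50-fold, 3.62-fold, 3.03-fold, 2.74-fold and 2.64-fold lower. These bounds cover counting error in the pooled neurons of the cluster only. Differences between mice and the error of the share in Dorsal are left out. Olfr1406 (1 neuron against 27, log2 difference -2.76, SE 0.97, edgeR adjusted p = 0.00664) and Olfr446 (1 against 26, -2.69, SE 0.99, adjusted p = 0.00809) completed them, and with no filter these 2 were not called (edgeR adjusted p = 0.0550 and 0.0651). Of these 7, Olfr689, Olfr552 and Olfr672 are class I. Receptors confined to Dlg2+ D., such as Olfr599, have too few neurons over both clusters for the filter of this test. Without mouse 4 the calls fell from 11 of 16 to 4 of 14 tested, of which 1, Olfr419, was more frequent in the cluster. Without mouse 3 there were 9 of 14, of which Olfr419 and Olfr1037 were more frequent in the cluster. With only neurons in which a single receptor was detected 6 of 8 receptors tested were called.

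The receptors found in the cluster were compared between mice. For each mouse, the receptors with at least 50% of their neurons in Dlg2+ D. were taken from the other 3 mice (40, 44, 47 and 45 receptors). In the mouse left out, 59.3%, 64.3%, 58.0% and 66.7% of the neurons with these receptors were in the cluster (62.0% ± 4.12, from 108, 56, 88 and 87 neurons), against 2.46% ± 0.445 of all other clustered neurons. The lowest Wilson bound over the mice was 47.5%, which treats neurons that share a receptor as independent. The other clustered neurons include those of the ventral clusters. All mice had been clustered together, so that the labels of the mouse left out are not independent of the other mice. Over all mice 52 receptors had at least 50% of their neurons there (24 class I, 25 class II and 3 TAARs), and these accounted for 285 of the 435 neurons (65.5%). For 11 receptors every clustered neuron was in Dlg2+ D. Of the 52 genes, 25 lie on chromosome 7, which also holds the class I cluster, and the others on chromosomes 2 (7), 10 (5), 9 (4), 14 (3), 4 (3), 1 (2), 17 (2) and 11 (1).

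**Figure D2:**
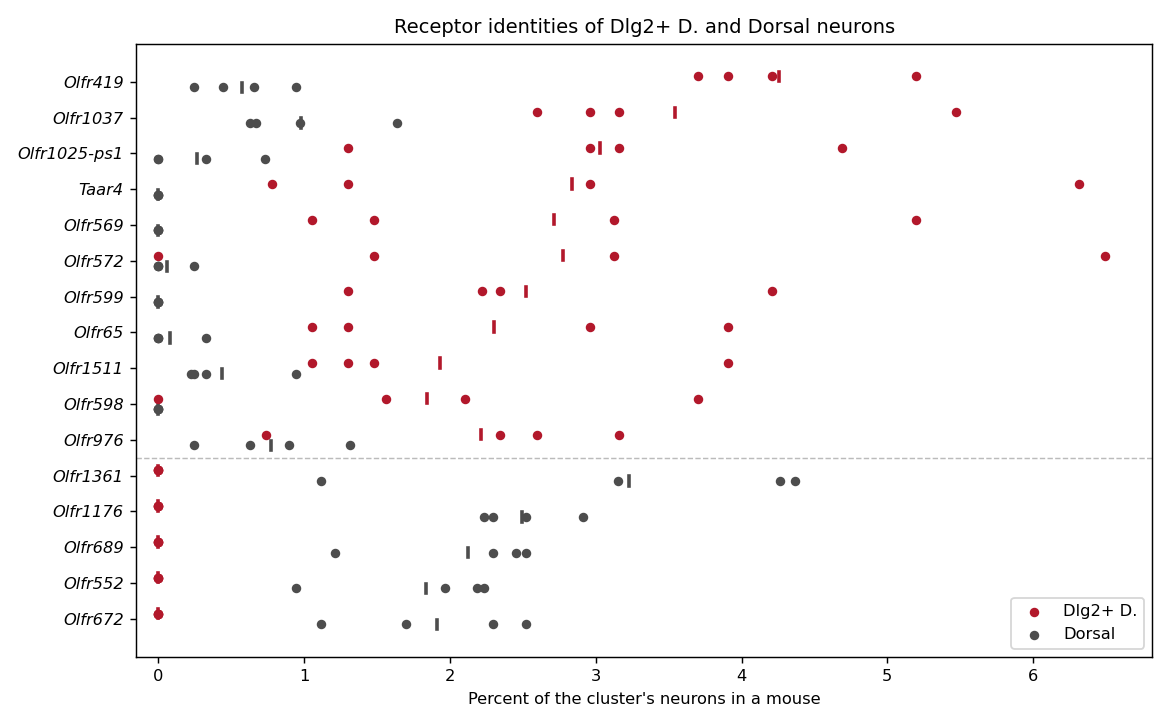
Percent of the neurons of each cluster (x axis) that carried each of the most frequent receptors of Dlg2+ D. and, under the dashed line, the 5 called receptors with no neuron there (y axis), 1 point per mouse, with a bar at the mean. Olfr419 was at 4.14% of Dlg2+ D. and 0.540% of Dorsal over all mice, and Olfr1176 at 0 in every mouse of the cluster.

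The identity receptor was also counted. Its level, here the mean over neurons of the UMIs per 10000 of each neuron and not a ratio of sums, was 81.3, 71.3, 82.1 and 68.2 in the cluster. In Dorsal it was 97.2, 102.6, 99.6 and 102.9. All mice were lower in the cluster (log2 ratio -0.41 ± 0.171, 0 of 4 higher, exact sign-flip p = 0.13). When only receptors with neurons in both clusters of a mouse were used, each with equal weight, the ratio was -0.10 ± 0.149 and 1 of 4 mice was higher (exact sign-flip p = 0.25), a smaller gap than over all neurons. With each neuron thinned to 3000 UMIs it was -0.409. At 3000 UMIs per cell, 17.3% ± 4.93 of the neurons in the cluster and 18.5% ± 4.06 of those in Dorsal had a UMI of a further receptor (difference -1.22 ± 6.06 percentage points, exact sign-flip p = 0.875). At full depth the difference turned to 2.94 points (p = 0.5 in the same exact test).

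The gene profile of the cluster was then described with the 8389 genes other than receptors that passed the filter on low counts. A gene was counted as higher or lower when its log2 difference was beyond 1 and the 4 mice did not overlap between the clusters. There were 48 higher genes (0.572%) and 30 lower ones (0.358%), and nothing is read from these shares because the clusters were drawn on these genes. With each neuron thinned to 3000 UMIs, 63 of 6573 genes were beyond the limits (34 higher and 29 lower), 43 of them among the 78. Fewer genes passed the filter at that depth, so that some of the 78 may not have been measured there. S100a5 (chromosome 3, 90608523 to 90611780) was at 573, 577, 645 and 603 UMIs per 10000 in Dlg2+ D. and at 167, 146, 178 and 168 in Dorsal, a log2 difference of 1.96 (SE 0.03). It alone gave 6.00% ± 0.328 of all UMIs in the cluster, against 1.65% ± 0.135 in Dorsal, which lowers the levels of other genes slightly: the median log2 ratio of levels was -0.085 while that of the scaled fit was 0.011.

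S100a6 (3.32, SE 0.11, 2.66 ± 0.822 against 0.268), S100a2 (3.23, SE 0.24) and S100a3 (2.61, SE 0.18), calcium-binding proteins encoded next to S100a5 on chromosome 3, were higher too. S100a2 lies within the annotated interval of S100a3 on the same strand, so that reads of both genes are not certain to be told apart. Pcp4l1, a relative of the calmodulin-binding Purkinje cell protein 4, was at 57.1 ± 6.26 against 12.0 ± 2.12 (2.35, SE 0.04). Also higher, with a level below 1, were Rasgrp4, a Ras guanine nucleotide exchange factor (2.83, SE 0.19), and Cidea, a lipid droplet protein (2.74, SE 0.20, 0.742 ± 0.168 against 0.109). Rgs7, a regulator of G protein signalling (1.23, SE 0.17), was higher with a level below 1 too, but its mice overlapped. These genes, with Dlg2 and S100a5, are among the 15 with the largest differences at a level of at least 0.5 in the higher cluster. Below that level Pde10a differed as much (3.41, SE 0.27, at 0.478 ± 0.127 in the cluster).

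The others of the 15 were all higher in the cluster as well. They were Kcnmb3, a subunit of BK potassium channels (1.32, SE 0.11), Pcdh10, a protocadherin (1.31, SE 0.11), Chgb, a secretory granule protein (1.18, SE 0.12), Epha5, an ephrin receptor of growing axons (1.16, SE 0.05, 8.55 ± 0.833 against 4.11), Celf3, an RNA-binding protein (1.12, SE 0.14), and Lrrc3b (1.10, SE 0.07). These are differences of levels within a gene, not a ranking of the genes by amount.

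Calb2, calretinin, a calcium-binding protein that labels another subset of OSNs, was the gene with the largest deficit. It was at 0.0373 ± 0.0288 UMIs per 10000 in Dlg2+ D. and 0.871 in Dorsal (-4.39, SE 0.28). This rests on 9 against 640 UMIs, and with so few the SE of the fit can be too small. Entpd2, an ectonucleotidase (-1.59, SE 0.22), Efna5, a ligand of Epha5 (-1.49, SE 0.15), Kirrel3, a homophilic adhesion molecule of OSN axons (-1.44, SE 0.20), Etv3 (-1.20, SE 0.19) and Olig1 (-1.16, SE 0.17), both transcriptional regulators, and Osbpl1a, an oxysterol-binding protein (-1.03, SE 0.12), were lower by more than 1. D930020B18Rik (-1.26), A730046J19Rik (-1.04), Pllp, Zfand2a, Scgn, Dcdc2a, Unc13c and F8 completed the 15 lowest at a level of at least 0.5 in Dorsal. Those from Pllp on lay from -0.96 to -0.85. Below that level Rims3 (-2.51, SE 0.42) and Itpka (-2.14, SE 0.33) had larger deficits. Dcdc2a, a doublecortin domain protein, was the most abundant of these 15, at 6.33 ± 0.965 against 12.4.

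The lists of related genes put these in context. Of 17 measured genes of axon guidance and sorting, 2 were higher and 2 lower, against 0.572% and 0.358% of all genes, and nothing is read from such counts here or for the lists below. Epha5 was higher and its ligand Efna5 lower, and Kirrel2 was higher (7.99 ± 1.37 against 4.12 ± 0.874, log2 difference 1.07, SE 0.05) and Kirrel3 lower. Kirrel2 and Kirrel3 are known to be expressed in a complementary manner that depends on activity. Of 15 measured members of the Dlg scaffold family and its partners, only Dlg2 was beyond the limits, and the median was -0.02. Its nearest relatives were at 1.31 against 1.17 (Dlg1, PSD-95 family member SAP97) and 0.919 against 0.841 (Dlg4, PSD-95), while the scaffold protein Homer2 was at 1.69 ± 0.236 against 3.05 ± 0.345. NMDA receptor genes Grin1 and Grin2b, whose products bind PSD-93 at central synapses, had no UMI in the cluster.

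None of 16 odorant transduction genes was beyond the limits, with a median of -0.07 and extremes at -0.43 for Slc12a2, the chloride cotransporter, and 0.43 for Ckb, creatine kinase. Their summed level was 355 to 377 in the cluster and 403 to 406 in Dorsal, not corrected for the large share of S100a5. The cyclic nucleotide-gated channel subunits Cnga2 (5.59 ± 0.285 against 7.25 ± 0.322) and Cnga4 (3.88 ± 0.194 against 5.53 ± 0.298) were at the lower end. Omp was at 59.7 ± 3.91 against 66.5 ± 3.76 (-0.06). All of 12 receptor trafficking and stress genes (median -0.05, lowest Rtp1 at -0.56), 13 regulators (Lhx2 at -0.23, Ebf1 at 0.01) and 12 voltage-gated channels stayed within the limits too, as did 16 presynaptic genes, where Syt4, a synaptotagmin, was closest at 0.99. Of 7 protocadherins 1 was higher, Pcdh10.

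Of 12 immediate early and dissociation genes, 4 were higher (0.572% of all genes were): Nr4a1 (2.09, SE 0.26, 0.368 ± 0.119 against 0.0891), Egr1 (1.10, but -1.19 with receptors found in both clusters of a mouse at equal weight), Junb (1.06) and Btg2 (1.06). They are transcripts of low level here, and Fos was at 2.01 against 1.51 (0.48). The summed level of this list was 28.7 to 32.0 in Dlg2+ D. and 28.7 to 31.4 in Dorsal, and its part in the other differences was not tested. Of 7 measured genes of immature neurons 1 was lower, Dpysl5, and Gap43 and Gng8 did not pass the filter. Of the dorsal zone list none of 5 was beyond the limits (median -0.40, summed levels 17.1 to 23.5 against 27.7 to 39.1), and of the ventral list 1 of 3, Cidea, with Nfix at 0.245 against 0.418. Genes that mark supporting cells, basal cells and glands did not pass the filter. The supporting cell list summed to 0.146 to 0.295 UMIs per 10000 in the cluster against 0.154 to 0.281 in Dorsal, with Cyp2g1 at 0.0577 against 0.0381 and no UMI of Cyp1a2 in the cluster. Of the immune and blood list only the haemoglobin genes Hba-a2 (0.115 against 0.101) and Hbb-bs (0.318 against 0.370) passed the filter. Gucy2d, Cnga3 and Trpc2, which mark sensory neurons with other transduction cascades, had no UMI in the cluster.

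**Figure D3:**
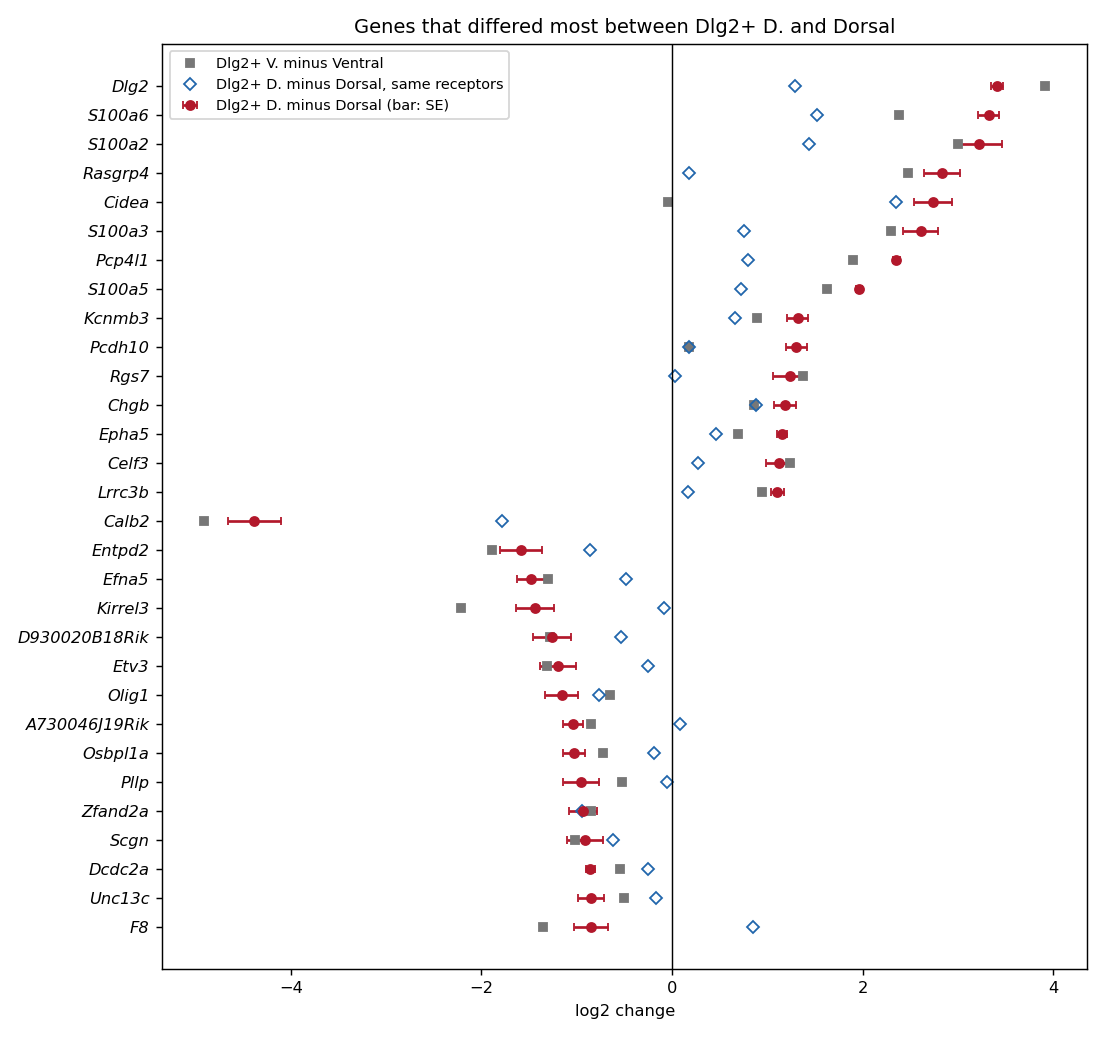
Log2 difference of Dlg2+ D. against Dorsal (x axis) for the 15 genes with the largest and the 15 with the lowest differences (y axis). Only genes with a level of at least 0.5 in the higher cluster and the same sign in 4 of 4 mice were ranked. The fitted difference over all neurons is in red with the SE of the fit as bars, which is not the spread over mice. Open blue diamonds give the mean log2 ratio from receptors with neurons in both clusters, and grey squares Dlg2+ V. against Ventral. Dlg2 was at 3.41 and 1.29, S100a5 at 1.96 and 0.73, and Calb2 at -4.39 and -1.78.

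Since receptors differ between the clusters, neurons with the same receptor were set side by side. In mice 1 to 4, 29, 15, 23 and 30 receptors had neurons in both clusters, and each was given equal weight, also where a cluster held 1 neuron of it. All 15 of the higher genes kept their direction, though for Rgs7 (0.03 ± 0.596), Rasgrp4 (0.18 ± 0.555) and Pcdh10 (0.18 ± 0.536) only 2 of 4 mice were higher. All 15 had a smaller difference (median log2 difference 0.73 against 1.96 over all neurons). The first value rests on ratios of unscaled levels and the second on the scaled fit. The 15 had also been picked as the largest over all neurons, so that nothing is read from the smaller size. Of the 78 genes beyond the limits over all neurons, 8 were among the 133 of 8389 beyond them at equal weight. The equal weights used unscaled levels with a pseudocount of 0.01, unlike the fit, and nothing is read from this overlap. Of the 15 lower genes 13 kept their direction. The means of A730046J19Rik (0.086 ± 0.924, 1 of 4 mice higher) and F8 (0.85 ± 1.17, 3 of 4 higher) turned. Kirrel3 (-0.088 ± 0.524) and Pllp (-0.048 ± 1.07) were lower in only 2 of 4 mice. S100a5 was at 491 ± 39.4 against 296 ± 22.5, Pcp4l1 at 46.1 ± 4.77 against 26.5 ± 1.63 and Dlg2 at 6.92 ± 1.08 against 2.95 ± 1.20, each higher in 4 of 4 mice. These neurons had been placed in the clusters by genes such as these, so that the differences are a description. Nqo1 was at -0.13 and Kirrel2 at 0.06 (2 of 4 mice higher). For Olfr419 the level of S100a5 was 719 in 18 neurons of the cluster and 301 in 8 of Dorsal, and that of Dlg2 was 4.89 and 2.95. For Olfr1025-ps1 S100a5 was at 563 against 242, but Dlg2 at 2.52 against 2.71. The first pair shows both genes higher in the cluster, the second only S100a5. Olfr1037, Olfr1511, Olfr976, Olfr1510, Olfr584, Olfr418 and Olfr544 had both genes higher in the cluster, from as few as 4 neurons in Dorsal.

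Inside the cluster, the level of Dlg2 varied with the receptor far more than that of S100a5. Among the 30 receptors with at least 5 neurons (244 neurons), Dlg2 ranged from 1.25 (Olfr994) over a median of 8.28 to 36.7 UMIs per 10000 (Olfr550), a ratio of 29.5. S100a5 ranged from 317 (Olfr615) to 968 (Olfr763), a ratio of 3.05, and Pcp4l1 from 34.6 to 99.7. In the neurons of Olfr599 Dlg2 was at 36.4, from 268 UMIs in 11 neurons. By contrast 9 receptors with 90 neurons were below 5, among them the 4 most frequent ones, Olfr419 (4.89), Olfr1037 (2.99), Olfr1025-ps1 (2.52) and Taar4 (3.83), and Olfr1511 (2.87). Olfr569, Olfr572, Olfr599 and Olfr65, with 11 neurons each, lay above 5, up to 36.4. Of the frequent receptors that were split with Dorsal, Olfr419, Olfr1037 and Olfr1511 were thus below 5 and Olfr976 was at 16.0, and all of them had S100a5 at 373 or above. S100a6 ranged from 0.286 (Olfr976) to 17.0 (Olfr65), and Nqo1 from 0.902 (Olfr578) to 39.4 (Olfr418). Each receptor rests on 5 to 18 neurons, and these ranges include counting error.

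**Figure D4:**
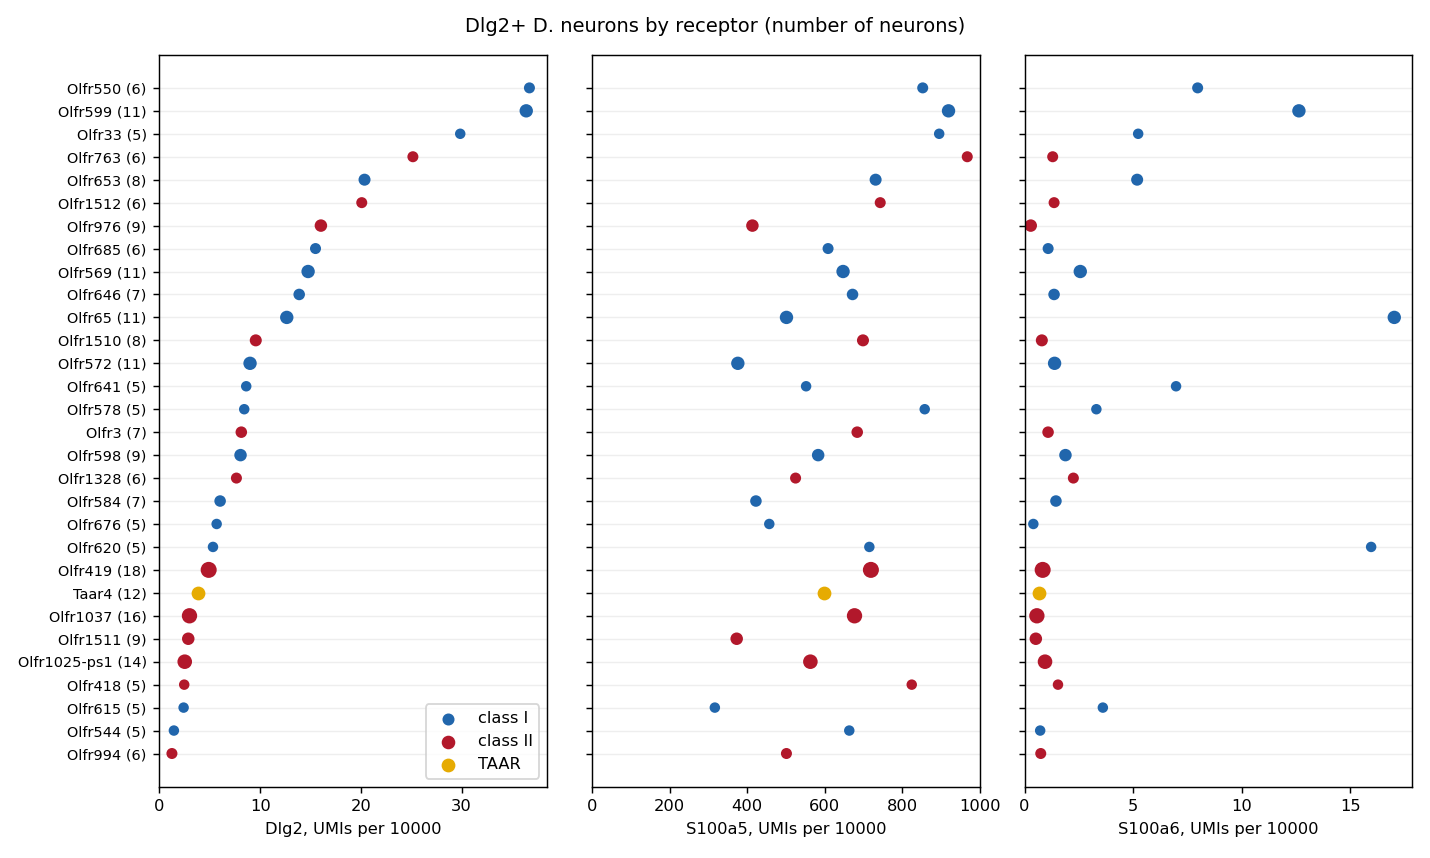
Levels of Dlg2, S100a5 and S100a6 in UMIs per 10000 (x axes) in the Dlg2+ D. neurons of each of the 30 receptors with at least 5 neurons (y axis, ordered by Dlg2, with the number of neurons, which also sets the size of a point), coloured by receptor class. Dlg2 spans from 1.25 to 36.7, S100a5 from 317 to 968 and S100a6 from 0.286 to 17.0, with the highest S100a6 values in class I neurons.

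Receptor class went with some genes inside the cluster, given as a description. Class I neurons had more S100a6 than class II neurons in 4 of 4 mice (5.18 ± 2.60 against 1.20 ± 0.0838, log2 difference 2.06, SE 0.15). Cd55, a complement regulator that names another subset (3.05, SE 0.34), and Ppa1, a pyrophosphatase (1.01, SE 0.07, 23.2 ± 4.14 against 11.5 ± 1.91), were higher as well. Pcdh7 (-2.47, SE 0.31) and Nrp1, a semaphorin receptor (-1.61, SE 0.36), were lower, and these mice did not overlap. Dlg2 itself differed little (0.39, SE 0.09, 12.6 ± 1.83 against 9.96 ± 2.21, overlapping), as did S100a5 (0.04, SE 0.06) and Omp (-0.03, SE 0.06). The 19 TAAR neurons had Dlg2 at 4.94 ± 4.50, with 3.63, 10.8, 5.32 and 0 in mice 1 to 4.

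The ventral pair of clusters gave the same direction for most of the genes. Of the 48 higher genes, 47 were measured in Dlg2+ V. against Ventral, 45 had the same direction there and 25 were beyond the same limits, and of the 30 lower ones 29 had the same direction and 13 were beyond the limits. Of all 8377 genes measured in both pairs, 63.8% had the same direction, and of the 10741 genes of the ventral fit 0.735% were beyond the limits as higher and 1.15% as lower. Both pairs were drawn in 1 clustering on these genes, so that this is no test. Dlg2 (3.92), S100a5 (1.63), Pcp4l1 (1.90) and Calb2 (-4.91) had ventral differences of the same sign as the dorsal ones, as had Kirrel3 (-2.21 ventrally, -1.44 dorsally), and the difference between the pairs was not tested. The log2 differences of Cidea (2.74 dorsally, -0.04 ventrally) and Pcdh10 (1.31 and 0.18) were unlike: Cidea was at 2.07 in Ventral and 1.86 in Dlg2+ V., above both dorsal clusters.

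Immature neurons offered cells from which the cluster had not been drawn. The late immature OSNs, iOSN2 in the deposited table, were 1006 cells, of which 976 had a single highest receptor with at least 3 UMIs. They were sorted by that receptor alone: 30 cells (14, 5, 5 and 6 in mice 1 to 4) had a receptor with at least 50% of its mature neurons in Dlg2+ D., and 95 cells (28, 13, 29 and 25) one with at least 50% in Dorsal. These cells carried 21 and 62 receptors. The receptor was of class I in 7, 1, 4 and 4 cells of the first set and in 5, 6, 10 and 8 of the second. Class was thus not balanced between the sets, and fits within a class are in the closing section. Of 2097 genes tested, 12 were higher (0.572%) and 3 lower (0.143%) in the cells with the receptors of the cluster at an edgeR adjusted p under 0.05. With no filter on low counts, which shifted the log2 differences of these genes by a median of -0.21, 36 of 14439 genes were called, 13 higher (0.09%) and 23 lower (0.159%), and 7 of the 15 were among them.

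Pcp4l1 and S100a5 led. Pcp4l1 was at 23.8, 36.6, 53.1 and 12.9 UMIs per 10000 in the cells with the receptors of the cluster and at 4.92, 2.66, 2.60 and 4.14 in those with receptors of Dorsal (log2 difference 3.09, SE 0.28, edgeR adjusted p = 9.33e-07). S100a5 was at 373, 395, 439 and 191 against 79.0, 56.8, 45.8 and 79.4 (2.47, SE 0.24, adjusted p = 1.15e-06). The values of the 4 mice did not overlap between the sets of cells for either gene. Kirrel2 (0.98, SE 0.18, edgeR adjusted p = 0.00577), Epha5 (1.17, SE 0.26, adjusted p = 0.0319) and Chgb (1.45, SE 0.33, adjusted p = 0.0406) were called too. With no filter Epha5 was still called (edgeR adjusted p = 0.00963), and Kirrel2 (0.0789) and Chgb (0.0707) were not. Chgb had reached the filter's limit in 4 of 4 mice with the receptors of the cluster and in 1 of 4 with those of Dorsal, so that it passed through the cells in which it was higher. Dcdc2a fell (-1.51, SE 0.21, edgeR adjusted p = 0.000367), as did Calb2 (-1.09, SE 0.20, adjusted p = 0.00577), at 12.3, 3.40, 18.2 and 16.0 against 28.6, 24.1, 31.0 and 25.5.

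Also called were Ubl3, mt-Nd4, mt-Nd2, Stmn1, Tubb5 and mt-Rnr1, which rose by 0.77 to 1.05 on the log2 scale, and Ptn, which fell by 0.73. Of these only mt-Nd4 and Ptn were called with no filter, as were Pcp4l1, S100a5, Calb2 and Dcdc2a. Stmn1 and Tubb5 are cytoskeletal genes of young neurons, and 3 of the called genes are mitochondrial. Among the maturity markers, Omp was at a log2 difference of -0.18 (edgeR adjusted p = 0.777), Gap43 at 0.24 (adjusted p = 0.690) and Gng8 at 1.42 (adjusted p = 0.218). Over all mice the median cell had 8311.5 UMIs and 0.543% mitochondrial UMIs with the receptors of the cluster, and 7680 UMIs and 0.511% with those of Dorsal. Within mice 1 to 4 the median mitochondrial share was 0.445%, 1.16%, 0.563% and 0.641% with the receptors of the cluster. It was lower in every mouse with those of Dorsal, at 0.429%, 0.670%, 0.408% and 0.511%. The part of maturity, depth and mitochondrial share in these differences was not tested. Of the 78 genes beyond the limits in mature neurons, 14 passed the filter in this fit and 6 were called in the same direction. Called in the same direction were 4 of the 15 higher genes named from the profile, of which 6 passed, and 2 of the 15 lower ones, of which 7 passed, against 0.572% and 0.143% of all genes, and nothing is read from counts over genes that passed. With no filter, 7 of the 15 higher and 4 of the 15 lower genes were called in the same direction, against 0.09% and 0.159% of all genes. The mean level had the direction of the mature profile for all 15 higher and for 13 of the 15 lower genes. Among the higher genes Pcdh10 was at 0.578 against 0.574, with 2 of 4 mice higher, and S100a2 rested on 9 against 2 UMIs. This count has no share over all genes beside it, and nothing is read from it.

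Dlg2 was too low in these immature cells to pass the filter, and was compared by its levels. They were 2.08, 2.35, 2.11 and 0.553 UMIs per 10000 with the receptors of the cluster and 0.509, 0.745, 0.659 and 0.291 with those of Dorsal. The level was higher in 4 of 4 mice, by 1.42 ± 0.472 on the log2 scale with a pseudocount of 0.1 (exact sign-flip, two-sided, p = 0.13, the smallest that 4 mice allow), although mouse 4 overlapped with the values of the other set. Without the filter, edgeR gave a log2 difference of 1.58 (SE 0.37, adjusted p = 0.0123). The difference did not hold when only receptors with at least 75% of their neurons in either cluster were used, which left 16 and 62 cells (mean log2 ratio -0.26, 2 of 4 mice higher). In that selection mouse 2 had 1 cell of 5102 UMIs with a receptor of the cluster, which has the same weight in the mean as each other mouse. The ratio was 0.240 with class I receptors only (3 of 4 mice higher, exact sign-flip p = 0.875) and 1.66 with class II receptors only (4 of 4, p = 0.13), both chosen after seeing the data. With class I only, mouse 2 again had 1 cell with a receptor of the cluster, and with class II only, mice 3 and 4 had 1 cell each. With the earlier iOSN1 cells added it was 1.19 (4 of 4, exact sign-flip p = 0.13), where Dlg2 passed the filter and edgeR gave 1.60 (adjusted p = 0.0112). In the iOSN2 cells alone Dlg2 reached the filter's limit in 3 of 4 mice with the receptors of the cluster and in 0 of 4 with those of Dorsal. With iOSN1 added it may thus have passed through the cells in which it was higher, and nothing is read from that adjusted p. With mature neurons outside the clustering added the ratio was 0.668 (3 of 4 mice higher, exact sign-flip p = 0.625), where edgeR gave an adjusted p of 0.353. The count of 15 called genes rested on few cells. Without mouse 1 it was 2 (of 1479 tested), without mouse 3 it was 4 (of 2127), and without mouse 2 it was 25 (of 2433). Without mouse 1 both called genes were higher, so that Dcdc2a and Calb2 were no longer called.

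**Figure D5:**
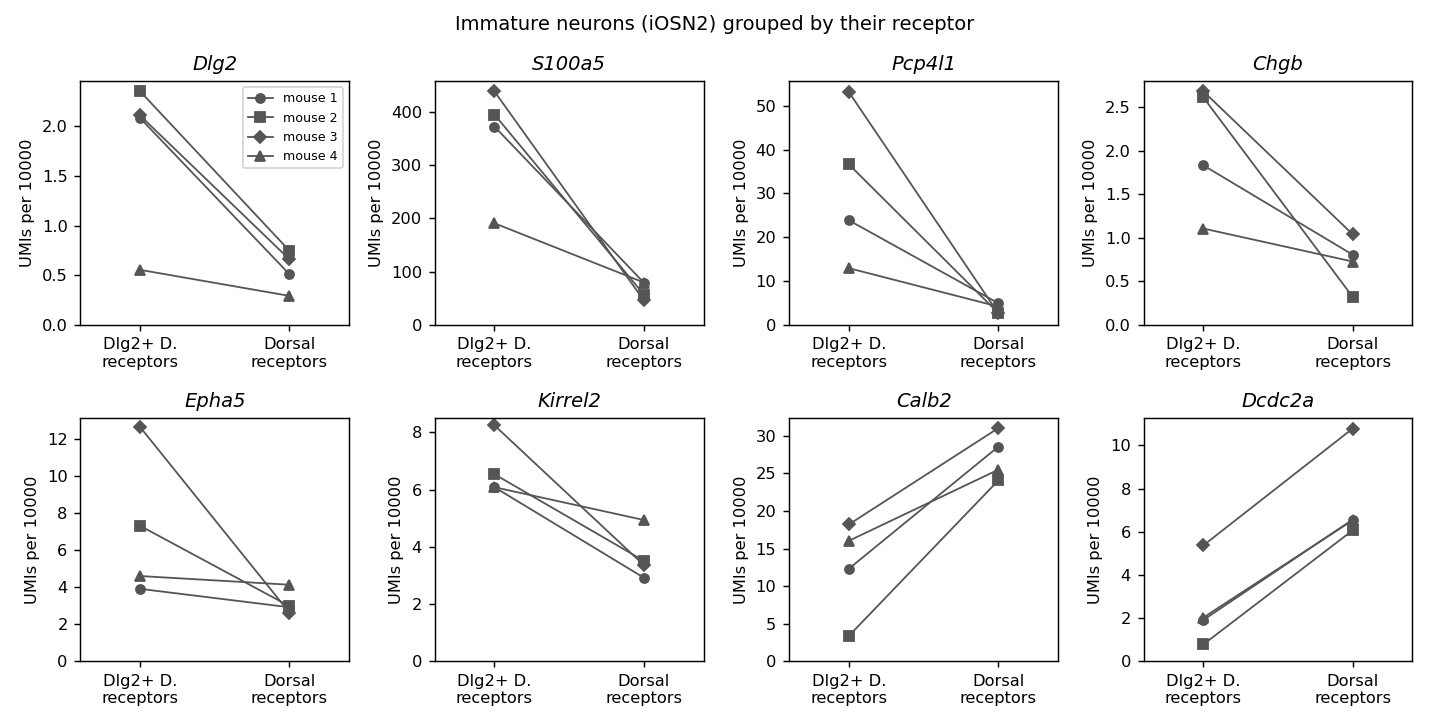
Levels of Dlg2, S100a5, Pcp4l1, Chgb, Epha5, Kirrel2, Calb2 and Dcdc2a in UMIs per 10000 (y axes) in iOSN2 cells whose receptor belongs mostly to Dlg2+ D. or mostly to Dorsal (x axis), 1 point per mouse, lines joining the values of a mouse. S100a5 and Pcp4l1 were higher with the receptors of Dlg2+ D. in all 4 mice, and Calb2 and Dcdc2a lower.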

How the data were processed

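Single-cell libraries from 4 mice (1 group, replicates 1 to 4) were analysed from the 4 deposited matrices and the deposited cell table. The authors had aligned the reads with Cell Ranger 6.0.1 to GRCm38, with an Ensembl annotation in which the 3′ ends of receptor genes were redrawn, and the deposited values are raw UMI counts per gene and cell, not normalised. The authors' cell table gives cell types, clusters and receptor identities made in Seurat after integration of the mice, and these were taken over. Neurons in which a second receptor passed the study's limit had been dropped before clustering, and no doublet caller was run here. The barcodes of 54 of 21755 sequences occurred in more than 1 library, among them 1 of the 435 neurons.

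UMI counts were summed per mouse and cluster, without the 1430 receptor genes, and fitted in edgeR 4.0.16 (R 4.3.3; TMM, filterByExpr with a minimum count of 10, quasi-likelihood, Benjamini-Hochberg at 0.05) with the mouse as a block, because both sums of a mouse come from the same animal and library. The study tested single cells with a rank sum test, and this was not followed, since cells are not replicates. Numbers of neurons per receptor were fitted alike, with a minimum count of 2 and the cluster's neurons as library size. Each SE was derived from the fit, as the size of the log2 difference over the square root of the quasi-likelihood F statistic. It is not the spread over the 4 mice, and it can be too small where a group has few counts. Single measures were compared by an exact sign-flip test over mice (Python 3.11.15). Named genes were the 15 highest and 15 lowest in log2 difference with the same sign in 4 of 4 mice and a level of at least 0.5 in the higher cluster, members of the lists, the 10 most frequent receptors and the called ones. Dlg2 did not pass the filter in the immature cells, so that a log2 ratio of levels replaced the planned fit. The equal-weight comparison used a pseudocount of 0.01. The fits were tested on simulated data. The members and the gene lists were chosen with earlier results of these data known. Gene positions are from GENCODE M21, and Olfr genes of the locus on chromosome 7 from 102476579 to 105369355 were called class I. Alternatives (other scaling and filters, DESeq2 1.42.0, each mouse left out) are given in the closing section. The authors' merged count table was not used.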

Additional observations from a re-analysis of the deposited data

Results flagged for a closer look

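In 71 groups of 4 mice, 5 had 1 value that stood apart by Dixon's criterion, and chance gives about 1 in 20. Mouse 2 had the lowest share of Dlg2+ D. among dorsal neurons, 12.7%, against 16.5% to 17.1% in the other mice. In the cluster, Pllp was at 0.192 UMIs per 10000 in mouse 3, against 0.275 to 0.292, and Dpysl5 at 0.196 in mouse 4, against 0.111 to 0.118. Among the iOSN2 cells with receptors of the cluster, the mitochondrial transcript mt-Nd2 was at 13.6 in mouse 2, against 6.08 to 7.19, and Dlg2 at 0.553 in mouse 4, against 2.08 to 2.35.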

How the results depend on the processing

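The count of 78 of 8389 genes beyond the limits (61.5% of them higher) was 156 of 9211 against all other dorsal clusters (42.3% higher). It was 391 of 19075 without the filter (28.6% higher) and 133 of 8389 with receptors of equal weight (38.3% higher, 8 shared). It was 48 of 6904 with class II neurons only, chosen after seeing the data, and 108 to 118, of 8314 to 8626, with 1 mouse left out. With fewer mice the criterion of no overlap is easier to pass. Without the replicate block the counts were 82 genes, 11 receptors and 17 genes of the immature cells, against 78, 11 and 15 with it. Of the 17 genes, 14 were among the 15, so that a call was also lost without the block, while all 78 genes and all 11 receptors were kept. No value of Dlg2 in immature cells could be had without the block or with DESeq2. The 11 called of 16 receptors tested became 6 of 8 with exactly 1 detected receptor, 20 of 309 without the filter and 2 of 2 with a minimum count of 5. With 1 mouse left out 4 to 12 were called, of 14 or 16 tested. The 15 called of 2097 genes tested in the immature cells became 7 of 2097 with DESeq2. Without the filter 36 of 14439 were called (13 higher, 23 lower, 7 of the 15 among them). With receptors at 75% it was 7 of 1014, and with iOSN1 added 10 of 3381. It was 8 of 729 with class I only and 11 of 1149 with class II only, both after seeing the data. With 1 mouse left out it was 2 to 25, of 1479 to 2433 tested. The ratio of Dlg2 there was -0.263 with receptors at 75%, 0.240 with class I and 1.66 with class II only (after seeing the data), 1.19 with iOSN1 added, 0.668 with unclustered mature neurons added and 1.58 without the filter, and 1.27 to 1.64 with 1 mouse left out. The difference in further receptors was 2.94 with all UMIs, -0.848 with at least 2 UMIs per receptor and -2.90 to 1.49 with 1 mouse left out. With equal weights A730046J19Rik was at 0.0858, F8 at 0.849 and Egr1 at -1.19. With 1 mouse left out, D930020B18Rik in held-out immature neurons was at -0.544 to 0.207 and Olig1 in held-out immature neurons at -0.815 to 0.0421, both positive without mouse 3. The cause of these changes was not tested. Over the main results, 56 alternative values kept their direction and their side of the threshold. For counts this meant a change of at most 1.5 times, and for the share of the cluster a move of less than 1 SD. Of the others, 9 were counts lower by more than that, 8 were higher counts or, for Dlg2 without the filter, a value now past the threshold, and 3 reversed. Counts were compared as such, although the number tested changed with the setting. In the sign-flip tests 4 mice cannot give a p under 0.13, so that only the direction of those values was open. A limit of 5 UMIs for the highest receptor left the same immature cells as the main limit. Nothing is read from the number of values that stayed. With 1 mouse left out the share of the cluster was 4.30% to 5.03%, the class I difference 4.31 to 7.43 points and the receptor level -0.465 to -0.353.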
